A study of Sus scrofa with 45 samples.

Results

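White blood cells and whole blood were set side by side in miniature pigs that had eaten a diet rich in lard, cholesterol and sucrose (HFCSD) for 27 weeks. The members are 7 of the 45 arrays of the series, chosen by their titles: 4 arrays of white blood cells and 3 arrays of whole blood, all under HFCSD at week 27. The study fed male Clawn miniature pigs, raised free of specific pathogens and 12 weeks old at the start, with 5 pigs on each diet according to its methods. The HFCSD feed was 37% sucrose, 15% lard and 2% cholesterol, the diet without the added sucrose is named HFCD, and control pigs ate standard feed. RNA was labelled with Cy3 and hybridized to porcine Agilent arrays read in 1 colour. The other 15 arrays of week 27 (4 of white blood cells and 4 of whole blood under control, 4 and 3 under HFCD) entered the fit for the spread between arrays and for the test of differences between diets.

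Whole blood in a PAXgene tube is lysed as it is drawn, so its RNA comes from red cell precursors, platelets, white cells and anything else in the sample. A LeukoLOCK filter instead holds back the white cells of a fresh sample while red cells, most platelets and plasma pass through, and those cells are lysed only after filtration. Reticulocytes are young red cells that still carry messenger RNA for globin and for the enzymes of heme synthesis, neutrophils and lymphocytes are the most numerous white cells of pig blood, and immediate early genes are switched on in white cells within minutes of activation or handling.

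The comparison asks which transcripts differ in level between the filtered cells and the blood they come from. Its labels leave several things unsettled. The white blood cell records name a PAXgene tube in the treatment field although their RNA came from LeukoLOCK, so the handling of these samples before filtration is not known. All whole blood arrays of week 27 were scanned on one day and all white blood cell arrays on another, on separate slides, so sample type, RNA kit and scan day cannot be told apart. The titles number the animals within each group, but the labels do not say that equal numbers are the same pig. Arrays were deposited for 3 and 4 of the 5 pigs on HFCSD, the number of arrays limits the precision, and p-values measure the spread between these samples. In bulk RNA fewer cells of a type and less RNA per cell cannot be told apart.

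Signal over background differed between the sample types. Spots well above background were counted among all spots other than controls. They made up 39.6%, 38.8% and 39.7% on the whole blood arrays and 48.6%, 48.1%, 47.6% and 46.1% on the white blood cell arrays. The groups did not overlap, and the part of this gap in the results below was not tested. Of 43603 probes, 2171 were well above background on all 4 white blood cell arrays and on no whole blood array, 425 were so on all 3 whole blood arrays and on no white blood cell array, 14146 on all 7 arrays and 18967 on none. With the weaker flag of the scanner software the first 2 counts were 841 and 203.

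A probe was tested if it was well above background on every array of at least 1 group. Differences are given as log2 of white blood cells minus whole blood, and a difference passed the test at an adjusted p below 0.05 in limma. Of 19686 probes tested 11586 passed (58.9%), with 7328 higher (37.2%) and 4258 lower (21.6%) in white blood cells. The median difference was 0.42, with quartiles of -0.51 and 1.1, so values for gene groups are read against 0.42. Other scalings put that median between 0.23, after another background correction, and 0.50, after equal 75th percentiles. Without overlap between the 3 and the 4 arrays were 11749 probes (59.7%). Of 1597 genes with a symbol, each taken by its brightest probe, 881 passed (55.2%), 613 of them higher (38.4%) and 268 lower (16.8%).

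Large falls outnumbered large rises although rises were more frequent. More than 2-fold differences that passed counted 5098 higher and 3550 lower, and more than 8-fold 259 higher and 1244 lower. These counts use fitted differences, which include levels not well above background in 1 sample type, so the folds of such probes are not measured. Of the tested probes that passed, 63.2% were higher.

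Chemokine genes were among the largest fitted rises, against whole blood levels not well above background. CXCL8 (interleukin 8) calls neutrophils to a site of inflammation, and the brighter of its probes read 3.35, 3.31 and 3.53 in whole blood against 7.23, 7.31, 9.15 and 9.82 in white blood cells. Its other probe read 1.36, 1.39 and 1.45 against 8.97, 8.40, 10.33 and 11.13. Neither probe was well above background on any whole blood array, so the rise is a lower bound of at least 17-fold by the first probe (adjusted p 0.000419) and at least 42.7-fold by the other (adjusted p 7.56e-06). Such a bound sets an array of the dimmer sample type to the lowest level that was well above background on it, or to its own reading where that is higher. CXCL2, a related neutrophil chemokine, read 2.21, 3.01 and 1.39 against 8.95, 6.55, 10.87 and 12.49, at least 42.9-fold higher (adjusted p 0.000179). For both genes every white blood cell array lay far above every whole blood array, and white blood cell replicates 3 and 4 lay above replicates 1 and 2.

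Of 12 tested immediate early genes 8 were higher and 1 was lower, with a median of 1.38 against 0.42 for all probes. HBEGF, a shed ligand of the epidermal growth factor receptor, read 1.5, 1.5 and 1.99 in whole blood, none well above background, and 4.92, 5.49, 7.56 and 8.41 in white blood cells, at least 4.94-fold higher (adjusted p 0.000112). AREG, another ligand of that receptor, was at least 1.17-fold higher, from 1.46, 1.46 and 1.68 to 3.56, 3.45, 5.26 and 5.79 (adjusted p 0.00319). In both ligands replicates 3 and 4 of the white blood cells were again the high pair. CD69, an early surface marker of activated lymphocytes, was well above background on all 7 arrays at 5.32, 6.39 and 6.18 against 8.94, 8.46, 9.16 and 10.05, a difference of 3.20 (9.17-fold, adjusted p 1.27e-05). NFKBIA, the inhibitor that NF-kappa-B itself induces, had the highest mean level of the list, 13.04, 13.80 and 13.18 against 14.88, 14.03, 15.11 and 15.14, and was higher by 1.45 (adjusted p 0.00315). No array of 1 sample type reached the range of the other for CD69 or NFKBIA. EGR3, a transcription factor, went the other way, from 6.31, 4.56 and 5.14 in whole blood to levels not well above background on any white blood cell array, at least 3.99-fold lower (adjusted p 4.98e-05), by a probe with a run of 5 C.

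Other genes were taken from the 10 largest fitted rises, a rank that counts whole blood levels not well above background and so is not an order of measured folds. RGS1, which damps chemokine receptor signals in lymphocytes, read 5.26, 5.24 and 6.41 in whole blood and 9.09, 10.98, 11.22 and 11.02 in white blood cells, a difference of 4.94 (30.7-fold, adjusted p 1.42e-06). White blood cell replicate 1 lay below the other 3 and still above all whole blood arrays. KLF4, a transcription factor of monocytes, was at least 2.75-fold higher (adjusted p 1.42e-06) by a probe that was not its brightest, and NAMPT, which makes a precursor of NAD and is secreted by white cells, at least 7.89-fold (adjusted p 2.01e-06). BLOC1S5 (transport to lysosome-related organelles), RPS20 (small ribosomal subunit), GNRHR (receptor of gonadotropin-releasing hormone) and ATP5B (catalytic part of ATP synthase) were not well above background in whole blood and at least 2.77-fold, 1.71-fold, 2.27-fold and 1.68-fold higher. The BLOC1S5 probe was not the brightest of its gene, and the brightest was lower by -2.11 (adjusted p 4.4e-05) with all 7 arrays well above background.

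**Figure D1:**
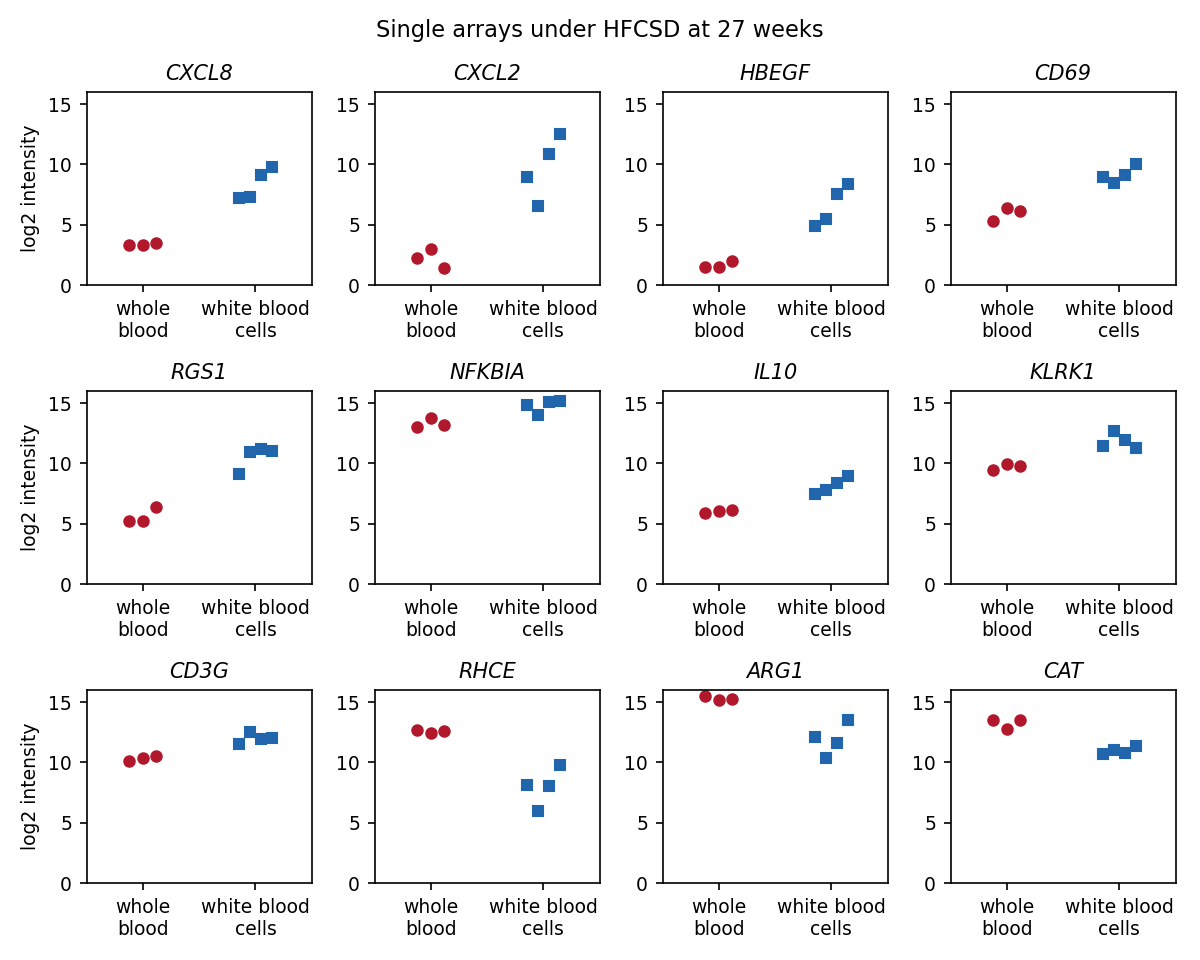
Log2 intensity of 12 genes on the single arrays under HFCSD at 27 weeks, with circles for the 3 whole blood arrays and squares for the 4 white blood cell arrays, and with the brightest probe of each gene. In each of the 12 panels the sample types lie apart, with CXCL2 spread from 6.55 to 12.49 among the white blood cell arrays.

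Cytokines are the secreted signals among white cells. Of 14 tested, 6 were higher and 2 lower, with a median of 1.06, which was 0.46 without whole blood replicate 3 and 0.53 with normexp. IL10, which restrains macrophages, read 5.89, 6.02 and 6.11 against 7.43, 7.84, 8.41 and 8.99, a difference of 2.16 (adjusted p 0.000657). IL15, which sustains NK and memory T cells, was not well above background in whole blood and at least 3.96-fold higher (adjusted p 2.62e-05), and IL27, a regulator of T cells from antigen-presenting cells, at least 1.48-fold (adjusted p 0.000735). CSF3, the growth factor of granulocytes, was not well above background in white blood cells and at least 3.12-fold lower (adjusted p 3.25e-05). MIF, an abundant cytokine of many cells, was lower by a small amount, from 13.03, 13.23 and 12.94 to 12.69, 12.29, 12.28 and 12.42 (-0.65, adjusted p 0.0153). The antagonist IL1RN had the highest mean level of the list and did not pass (0.53, adjusted p 0.194).

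Chemokines and their receptors, 20 tested, split into 4 higher and 5 lower with a median of 0.27, which lies below 0.42 here and above the overall median under another scaling. Lower were the receptors XCR1, a marker of cross-presenting dendritic cells (10.90, 10.64 and 10.04 against 6.25, 5.83, 6.58 and 6.80, a difference of -4.16, adjusted p 7.57e-06), and CXCR3, found on activated T cells (10.19, 9.78 and 9.14 against 7.02, 7.27, 7.25 and 7.37, -2.48, adjusted p 1.09e-05). Neither receptor overlapped between sample types, and their probes held runs of 4 and 3 C. CCR9, which guides lymphocytes to the gut, was lower by -1.04 (adjusted p 0.00844) and the ligands CCL19 and CXCL16 by -1.10 and -0.91 (adjusted p 0.00144 and 0.0105), with overlap in CCL19. CXCL16 also had a probe that was higher by 0.88 (adjusted p 0.0158). CXCR2, a neutrophil receptor with the highest mean level of the list, overlapped and did not pass (0.24, adjusted p 0.688).

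Lymphocyte genes check the label of the filtered cells. Of 14 tested T cell genes 7 were higher and 0 lower, with a median of 0.66. CD3D and CD3G are chains of the T cell receptor complex. CD3D, the list's highest mean level, read 11.55, 11.51 and 12.05 against 12.28, 12.54, 12.23 and 12.31 (0.64, adjusted p 0.0142), and CD3G 10.08, 10.36 and 10.53 against 11.54, 12.53, 11.92 and 12.01 (1.68, adjusted p 0.00096). Both lay higher on all 4 white blood cell arrays than on any whole blood array. CD8A, the co-receptor of cytotoxic T cells, and TRAT1, an adaptor of the receptor complex, were higher by 1.32 and 1.59 (adjusted p 0.00105 and 0.000375).

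Among 8 tested NK and cytotoxic genes 4 were higher and 0 lower, with a median of 0.73. KLRK1 (NKG2D), an activating receptor, read 9.45, 9.95 and 9.81 against 11.42, 12.67, 11.94 and 11.32, a difference of 2.10 (adjusted p 0.000253) without overlap. FCGR3A (CD16), the low-affinity Fc receptor, was higher by 0.81 (adjusted p 0.00541). Perforin (PRF1), which opens target membranes, was well above background on 2 of 3 whole blood arrays and at least 2.69-fold higher (adjusted p 0.00173), and Fas ligand (FASLG) at least 1.23-fold (adjusted p 0.00137). GNLY, a granule protein with the highest mean level of the list, overlapped between sample types at 14.74, 15.54 and 15.02 against 14.56, 14.72, 15.03 and 15.07 (adjusted p 0.5). The signalling adaptor TYROBP did not pass either (0.29, adjusted p 0.414).

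The 8 tested B cell genes gave 3 higher and 1 lower, with a median of 0.39 that lies on either side of the overall median depending on the scaling. BLNK, an adaptor of the B cell receptor, was well above background on 1 of 3 whole blood arrays and at least 2.91-fold higher (adjusted p 0.000181). CD72, a B cell co-receptor, was higher by 1.39 (adjusted p 0.00135), and IGHM, the heavy chain of IgM, was well above background on 2 of 3 whole blood arrays and at least 2.48-fold higher with overlapping groups (adjusted p 0.0234, past the threshold in only 3 of the 7 fits that left out 1 array). The light chain gene IGLC was lower, 8.42, 9.36 and 8.15 against 4.79, 5.64, 5.38 and 5.54, a difference of -3.31 (adjusted p 3.11e-05) without overlap, by a probe with a run of 5 C. The IgG heavy chain IGHG, the list's highest mean level, did not pass (-1.01, adjusted p 0.0629).

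Myeloid genes gave a mixed picture. Of 31 monocyte and macrophage genes tested 11 were higher and 2 lower, with a median of 0.65. HMOX1, which breaks down heme, read 6.78, 8.78 and 8.35 against 9.51, 9.61, 10.46 and 10.37, a difference of 2.02 (adjusted p 0.000305). FCGR1A, the high-affinity Fc receptor, and CD80, a co-stimulator of T cells, were at least 3.81-fold and at least 4.04-fold higher (adjusted p 0.00886 and 0.00285), with 1 and 2 of 3 whole blood arrays well above background. MRC1, the mannose receptor, was not well above background in whole blood and passed with no fold that can be bounded (adjusted p 0.000571). OLR1, a receptor of oxidized LDL, was lower, 8.36, 7.97 and 7.40 against 5.95, 5.65, 6.89 and 6.63 (-1.63, adjusted p 0.0242, and again past the threshold in 3 of 7 such fits), as was progranulin (GRN) by -1.80 (adjusted p 5.3e-05) with a probe that held at least 6 C in a run. Cystatin C (CST3), the list's highest mean level, did not pass and changed sign with the scaling (0.44 here, -0.23 after equal 75th percentiles).

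Of 17 neutrophil genes 2 were higher and 4 lower, with a median of 0.35 whose side of the overall median also depends on the scaling. PGLYRP1, which binds bacterial peptidoglycan, read 10.66, 9.99 and 9.98 against 6.43, 5.81, 6.79 and 6.65 (-3.79, adjusted p 3.45e-05). C5AR1, the receptor of complement C5a, read 10.36, 9.77 and 8.89 against 5.56, 5.24, 6.24 and 6.56 (-3.77, adjusted p 1.72e-05). ARG1, arginase of granules, read 15.51, 15.19 and 15.25 against 12.09, 10.34, 11.65 and 13.50 (-3.42, adjusted p 0.00132). The sample types lay apart for these 3 genes, while the antimicrobial peptide gene NPG4 overlapped (-1.34, adjusted p 0.00728). Of the 4 lower probes 3 held CCC, those of C5AR1, ARG1 and NPG4, a feature taken up below. Among the 17 tested 10 held it, and the 7 without it had a median of 0.63, with 2 higher and 1 lower. CYBA, a subunit of the phagocyte oxidase with the highest mean level of the list, was higher by 1.05 (adjusted p 0.00927).

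Of 5 tested genes of eosinophils, basophils and mast cells 2 were higher and 1 lower. ALOX15, a lipoxygenase of eosinophils, and MS4A2, a chain of the IgE receptor, were higher by 1.28 and 1.17 (adjusted p 0.00577 and 0.00138), and the transcription factor GATA2 was lower by -2.33 (adjusted p 2.6e-05) by a probe with a run of 5 C. The eotaxin receptor CCR3 and the stem cell factor receptor KIT did not pass, at -0.08 and -0.10 here and 0.24 and 0.24 after equal 75th percentiles.

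Red cell genes check whether the filter removed its target. Of 14 list members on the array 8 were tested, 0 were higher and 2 lower, with a median of -1.06, which was -0.58 without white blood cell replicate 4. RHCE, a blood group protein of the red cell membrane, read 12.72, 12.40 and 12.61 in whole blood against 8.12, 5.99, 8.01 and 9.77 in white blood cells, a difference of -4.61 (24.3-fold, adjusted p 9.47e-05). HBE1, a beta-type globin, had the highest mean level of the list and read 14.77, 14.49 and 14.04 against 13.82, 13.08, 11.10 and 11.98. All 4 filtered samples lay below the 3 whole blood samples, yet the difference of -1.94 did not pass (adjusted p 0.198), and the gene stayed far above background. The probe of alpha globin (HBA) was not well above background on every array of either group and was not tested.

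Catalase (CAT), an abundant red cell enzyme that other cells also make, was lower by -2.28 without overlap (adjusted p 6.07e-05). BPGM, which makes the red cell's 2,3-bisphosphoglycerate, the membrane anchor ANK1 and the transcription factor FOXO3 overlapped between sample types and did not pass (-1.19, -0.55 and -0.60). UROS, an enzyme of heme synthesis, did not pass, with overlapping groups and a difference of 0.05 that fell below 0 under 2 other scalings. The summed level of the red cell list was 15.88, 15.62 and 15.55 in whole blood against 14.85, 14.16, 13.70 and 14.11 in white blood cells on the log2 scale. Its part in the differences of other genes was not tested.

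Platelet genes did not separate the sample types as a group. Of 15 tested 2 were higher and 1 lower, with a median of 0.69, and the summed level was 15.59, 15.08 and 14.10 against 16.13, 15.89, 14.32 and 14.04. PF4, a chemokine of platelet granules and the list's highest mean level, read 13.81, 12.92 and 10.76 against 13.86, 14.23, 12.69 and 11.96 and did not pass (0.69, adjusted p 0.579). PPBP, another granule chemokine, read 10.12, 9.40 and 5.82 against 12.63, 12.76, 10.69 and 9.60 (2.97, adjusted p 0.0544). For both genes whole blood replicate 3 was the lowest of its group and white blood cell replicates 3 and 4 were lower than 1 and 2. Platelet transcripts were thus present in the filtered samples and varied among the arrays of both sample types. P2RY12, the platelet receptor of ADP, was not well above background in whole blood and at least 1.47-fold higher (adjusted p 0.000122), and thromboxane synthase (TBXAS1), found in platelets and monocytes, at least 3.27-fold with 2 of 3 whole blood arrays well above background (adjusted p 0.00315).

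Genes of other tissues were listed because free RNA in blood can come from organs. Of 40 liver plasma protein genes on the array 14 were tested, 10 were lower and 2 higher, with a median of -2.43 here and of -1.25 with normexp background correction. The summed level was 13.59, 13.47 and 12.92 in whole blood against 10.46, 11.07, 11.12 and 10.90 in white blood cells. The defining genes of hepatocytes were not among the 14: ALB, APOA1, APOB, TTR, SERPINA1 and FGG were not well above background on every array of either group. A1BG, a plasma protein of unsettled role with the list's highest mean level, read 11.97, 12.45 and 11.37 against 9.29, 10.42, 10.33 and 10.04 (-1.91, adjusted p 0.000669). CRP, an acute phase protein, read 10.93, 10.60 and 10.14 against 5.45, 5.58, 5.47 and 5.87 (-4.96, adjusted p 9.88e-07). ITIH4, an inhibitor of proteases, was at least 10.4-fold lower (adjusted p 1.65e-06), and HNF4A, a liver transcription factor, was lower by -4.39 (adjusted p 3.43e-06). The complement genes C3 and CFB, which white cells also express, were higher by 1.14 and by at least 2.55-fold (adjusted p 0.00754 and 0.00314), CFB with 2 of 3 whole blood arrays well above background. Of the 10 lower probes of this list 8 held CCC and 6 held CCCC, a feature taken up below. Of the 14 tested 9 held CCC and 7 held CCCC. The 5 tested probes without CCC had a median of 1.14, with 2 higher and 2 lower. The part of liver RNA in the result was not tested.

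Of 13 tested skeletal muscle genes 3 were higher and 5 lower, with a median of -0.20, and the summed levels overlapped. CAV3, a caveolin of muscle, read 11.99, 10.86 and 10.78 against 5.95, 4.72, 6.46 and 7.17 (-5.14, adjusted p 0.0001), and PYGM, the glycogen phosphorylase of muscle, was lower by -4.48 (adjusted p 4.94e-06). The defining genes CKM, MB, MYH1, MYH2 and TNNT3 were not well above background on every array of either group. TPM2, a tropomyosin, was higher by 1.60 (adjusted p 6.89e-05). Of 9 tested adipose genes 2 were higher and 3 lower (median 0.23, and -0.27 without whole blood replicate 3), with ADIPOQ, FABP4 and PLIN1 too dim to be tested. ADRB3, the beta-3 adrenergic receptor, was at least 2.78-fold lower (adjusted p 6.18e-07) and PNPLA2, a triglyceride lipase, was lower by -2.0 (adjusted p 1.36e-05). Among 14 vessel wall genes 3 were higher and 3 lower (median 0.48): the matrix proteoglycan DCN was at least 32.5-fold lower with 3 of 4 white blood cell arrays well above background (adjusted p 3.34e-06), the cytoskeletal protein SMTN lower by -3.57 (adjusted p 0.000348) and the adhesion molecule VCAM1 at least 1.11-fold higher (adjusted p 7.36e-05). Of the lower probes 3 of 5 in the muscle list, 3 of 3 in the adipose list and 3 of 3 in the vessel wall list held CCC. Among all tested probes of these lists 7 of 13, 8 of 9 and 7 of 14 held it. The part of RNA from these tissues was not tested.

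Cholesterol genes bear on the diet, since white cells switch sterol synthesis and uptake on through SREBP-2 when membrane cholesterol is low and efflux on through LXR when it is high. Of 8 tested genes of synthesis and uptake 5 were higher and 2 lower, with a median of 0.93 here and of 0.42 with normexp. The synthesis enzymes CYP51 and MSMO1 were higher by 0.82 and 1.08 (adjusted p 0.0271 and 0.0127), the latter with overlap, and SQLE, an earlier enzyme of that pathway, was well above background on 2 of 3 whole blood arrays and at least 2.06-fold higher (adjusted p 0.00161). CYP51 lost the threshold in 4 of the 7 fits that left out 1 array, and MSMO1 without whole blood replicate 1. The regulators themselves went the other way. SREBF1 read 12.82, 12.61 and 12.36 against 8.22, 9.83, 9.67 and 8.97 (-3.43, adjusted p 0.000195), and SREBF2 12.30, 12.48 and 12.06 against 8.48, 9.64, 9.24 and 8.91 (-3.22, adjusted p 2.98e-05). Both probes of these regulators held CCCC. SCAP, which escorts them from the endoplasmic reticulum, did not pass (0.14, adjusted p 0.606).

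Of 5 tested LXR genes 2 were higher and 1 lower, with a median of 0.30 that lies on either side of the overall median depending on the scaling. The receptor NR1H3 (LXR alpha) was higher by 1.34 and NR1H2 (LXR beta) lower by -1.28 (adjusted p 0.00186 and 3.37e-05). SCD, a desaturase that LXR induces, was higher by 0.92 (adjusted p 0.0161). ABCA1, which exports cholesterol, read 12.23, 12.24 and 12.43 against 12.79, 12.28, 12.64 and 12.70 and did not pass (0.30, adjusted p 0.178).

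Antigen presentation and innate sensing followed. Of 11 tested genes of MHC class I and peptide loading 4 were higher and 1 lower, with a median of 0.59. SLA-1, a class I heavy chain with the highest mean level of the list, was higher by 0.59 (adjusted p 0.0221), and under equal 75th percentiles it was lower by -1.26 (adjusted p 0.000461). Of its 9 other tested probes 7 were higher, 1 was lower by -1.32 (adjusted p 0.00013) and 1 did not pass. SLA-3 and SLA-7, other heavy chain genes, were higher by 1.76 and 1.39 (adjusted p 0.00385 and 0.00173), SLA-6 was not well above background in whole blood and passed with no fold that can be bounded (adjusted p 2.08e-06), and the chaperone CALR was lower by -0.84 (adjusted p 0.00306). Of 5 tested MHC class II genes 0 passed, with a median of 0.41 whose side of the overall median depends on the scaling. SLA-DRA, its alpha chain, read 12.74, 12.98 and 13.55 against 12.99, 14.20, 13.89 and 13.81 (0.63, adjusted p 0.0602). Its beta chain SLA-DRB1 and the invariant chain CD74 differed by 0.21 and -0.03, CD74 by 0.31 after equal 75th percentiles. Interferon-induced genes, 22 tested, gave 3 higher and 1 lower with a median of 0.46. USP18, which ends interferon signalling, was higher by 1.12 (adjusted p 0.0463), DDX58, a sensor of viral RNA, by 1.22 with overlapping groups (adjusted p 0.044), and CXCL10 did not pass (1.55, adjusted p 0.149). USP18 and DDX58 lost the threshold in 5 of the 7 fits that left out 1 array. Among 14 Toll-like receptors and adaptors 5 were higher and 1 lower, with a median of 0.18. The endosomal receptors TLR3 and TLR8 and the surface receptor TLR6 were not well above background in whole blood and were higher by at least 1.63-fold for TLR3, 2.10-fold for TLR8 and 1.24-fold for TLR6, with overlap in TLR3 and TLR6.

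Genes of basic cell functions were also listed. Of 41 ribosomal protein genes 20 were higher and 4 lower with a median of 0.60, and their median relative to all probes ran from -0.52 to 0.33 over the scalings. RPS23, the list's highest mean level, read 15.64, 15.81 and 16.18 against 17.33, 17.28, 17.28 and 17.28 and was higher by 1.41 (adjusted p 6.68e-06), yet after equal 75th percentiles the difference was -0.11 (adjusted p 0.668). RPL5 was higher by 2.07 (adjusted p 6.78e-05), and RPL35 was lower by -0.70 (adjusted p 0.0129), while another of its probes was higher by 0.67 (adjusted p 0.00438). Respiratory chain and ATP synthase genes, 28 tested, gave 7 higher and 2 lower (median 0.17), with COX6C and COX7C of cytochrome oxidase higher by 1.62 and 1.48 (adjusted p 0.000366 and 0.00517). Of 7 glycolysis genes 3 were higher and 0 lower (median 0.75), with lactate dehydrogenase B (LDHB) higher by 0.95 (adjusted p 0.000944). Of 13 heat shock genes 3 were higher and 0 lower (median 0.60), with the chaperone HSP90B1 of the endoplasmic reticulum higher by 1.09 (adjusted p 0.000547). Among 15 antioxidant genes 5 were higher and 4 lower (median 0.51, and 0.17 without white blood cell replicate 1), with the red cell peroxidase GPX1 at 15.57, 15.87 and 15.62 against 14.25, 14.08, 14.56 and 14.75 (-1.28, adjusted p 7.9e-05). Of 11 proteasome genes 3 were higher and 1 lower (median 0.38, on either side of the overall median depending on the scaling), the last being the ubiquitin receptor PSMD4 (-0.83, adjusted p 0.00116). The lists together hold 507 genes, of which 370 were tested, 117 were higher and 57 lower.

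**Figure D2:**
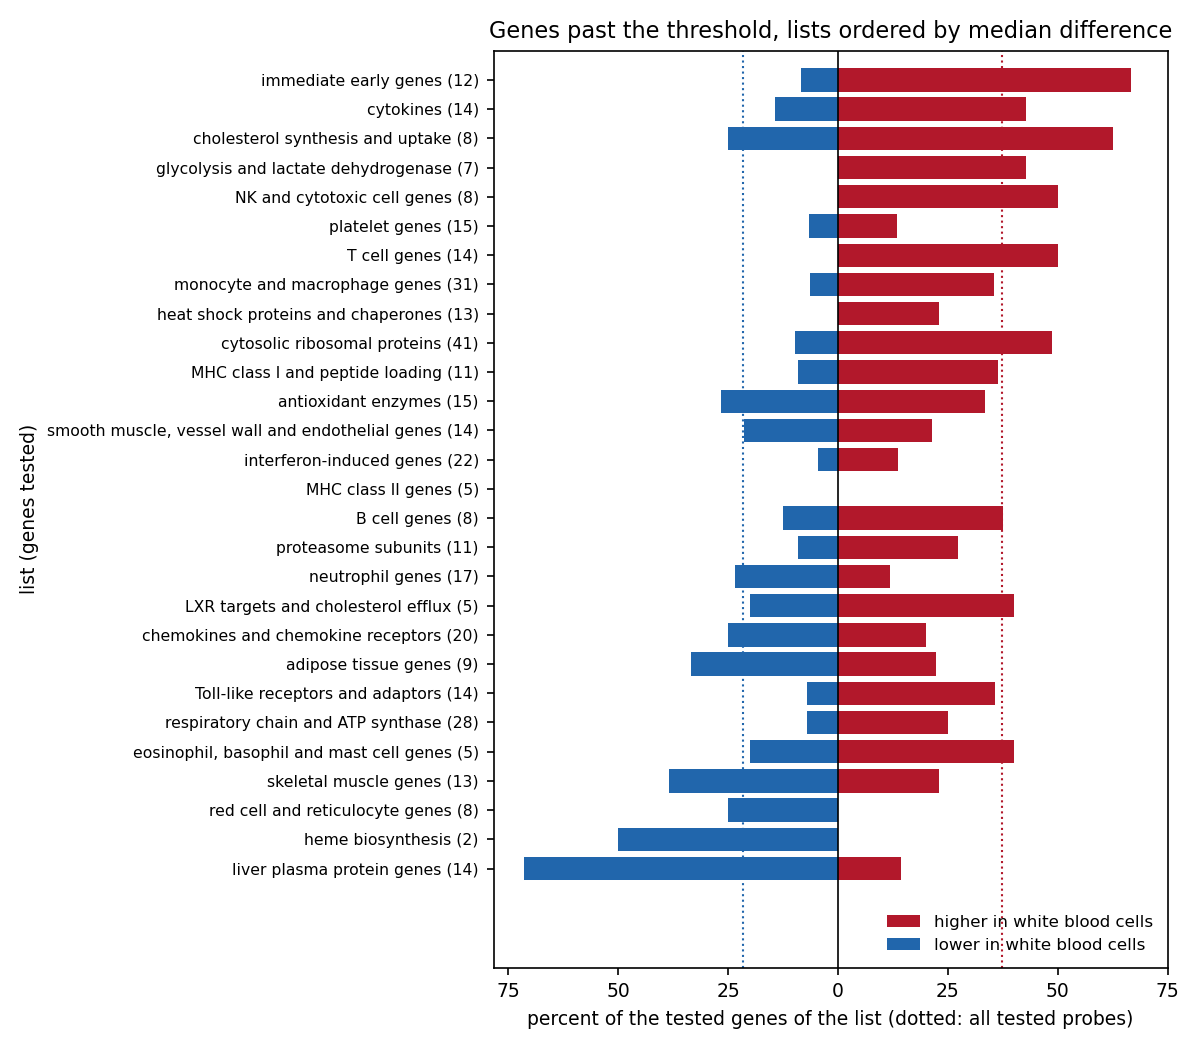
Percent of the tested genes of each list that were higher (right) or lower (left) in white blood cells than in whole blood under HFCSD, with the number tested in brackets, lists ordered by median difference, and dotted lines at 37.2% and 21.6% for all probes. Immediate early genes lie at the top with 66.7% higher and liver plasma protein genes at the bottom with 71.4% lower, and 7 of the 28 lists lie above or below the median of all probes depending on the scaling.

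Genes with the largest falls belong to no one cell type, and 9 are given here. CLPS, the colipase of pancreatic juice, read 13.87, 12.82 and 13.17 in whole blood against 6.54, 4.39, 6.67 and 7.93 in white blood cells, a difference of -6.90 (adjusted p 3.77e-06). PTGDS, which makes prostaglandin D, read 14.43, 13.71 and 13.91 against 7.82, 5.77, 7.78 and 8.99 (-6.43, adjusted p 1.68e-06). In both genes white blood cell replicate 2 was the lowest and replicate 4 the highest. SLC2A11 (a sugar transporter), ACR (acrosin of sperm) and ABCB4 (a bile phospholipid exporter) were at least 108-fold, 66.2-fold and 26.4-fold lower, with 3, 3 and 0 of 4 white blood cell arrays well above background. The ammonium transporter RHBG, the matrix proteins THBS1 and SPARCL1 and the skin gene PSORS1C2 were lower by -6.20, -6.20, -5.97 and -6.10. The probes of these 9 genes held a run of at least 3 C.

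That feature was searched after the differences were known. Probes are 60 bases long, and their longest run of C was counted in the sequence as the array file gives it, on that strand alone. The median difference was 0.85 for probes with a longest run of 1 C, 0.60 for 2, 0.23 for 3, -0.31 for 4, -1.32 for 5 and -2.93 for 6 or more. Runs of G gave medians between 0.28 and 0.50 over the same range. Base content moved with the difference as well: the median went from 0.85 for probes with up to 7 C to -1.52 for those with 20 or more, and from -0.35 to 0.69 for the same counts of G. Run length and base content were not told apart. The motif CCC was held by 39.3% of all 43603 probes, by 41.6% of those tested, by 28.5% of those higher and by 63.2% of those lower. The motif CCCC was held by 11.2% of all 43603 probes, by 13.2% of those tested, by 6.17% of those higher and by 29.5% of those lower in white blood cells. It was held by 47.0% of the probes lower by more than 16-fold and by 63.0% of the 81 lower by more than 64-fold, both by fitted differences. Of the 425 probes seen in whole blood alone 32% held it, and of the 2171 seen in white blood cells alone 6.26%.

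The plot of differences by run length shows all 3 diets. The median difference under control went from 0.39 for a longest run of 1 C to -0.79 for 6 or more. For the same runs under HFCD it went from 0.54 to -1.41. Relative to the mean of the 22 arrays of week 27, probes with a run of 5 or more C deviated by a median of 1.52, 1.32 and 0.87 on the whole blood arrays under HFCSD and by -0.53, -0.30, -0.39 and -0.45 on the white blood cell arrays. Probes with runs of up to 2 deviated by -0.52, -0.35 and -0.22 and by 0.15, 0.21, 0.22 and 0.22. Under control the whole blood arrays deviated by 0.01, -0.03, -0.09 and 0.41 for runs of 5 or more, and under HFCD by -0.01, 1.06 and 0.46. The sign thus differed among whole blood arrays of the other diets. For these runs the white blood cell arrays deviated by -0.47, -0.54, -0.75 and -0.16 under control. Those under HFCD deviated by -0.44, -0.92, -0.17 and -0.32. The cause was not tested.

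**Figure D3:**
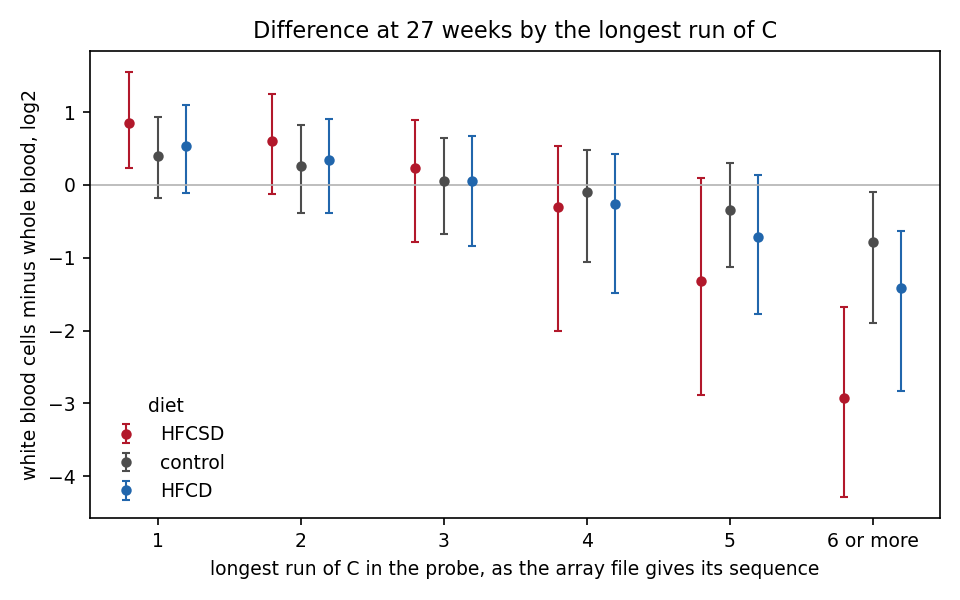
Median difference (points, with bars from the lower to the upper quartile) in log2 between white blood cells and whole blood at 27 weeks against the longest run of C in a probe, for the HFCSD, control and HFCD diets. Under HFCSD the median runs from 0.85 for probes with single C to -2.93 for probes with 6 or more.

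Probes of 1 gene were also compared with each other, without telling run length from base content or strand. Of 462 genes with several tested probes 25 had probes past the threshold in opposite directions. In 80 genes with both a probe that held CCCC and a probe with no run above 2, the former was the lower in 64, with a median difference of -0.56 between them. THBS1 (thrombospondin, a matrix protein also released by platelets), MYD88 (the adaptor of Toll-like receptors) and VNN1 (a pantetheinase of white cells) are shown. They come from the extreme end of the 80 genes, with gaps of -8.06, -5.1 and -4.41 by fitted differences. Each of their probes is given by 30 bases, with the longest run of C in capitals.
THBS1 lower by -6.20: acgttttgcagcaCCCCCtgaaaattgtca
THBS1 higher: gacagaaactctaatCCatgacacatcgca
MYD88 lower by -2.56: ctgttggtaacctCCCCttctgtaccctag
MYD88 higher: tgatgattaCCtgcaaagcaaggaatgtga
VNN1 lower by -3.07: cacccctCCCCCaacaaaaagaaggaaaga
VNN1 higher by 1.34: tttggatCCtttaaaaaatgatggatatga
The adjusted p for the 6 probes were 7.47e-07, 0.0104, 1.73e-05, 0.000502, 9.18e-06 and 0.033. The higher probes of THBS1 and MYD88 were not well above background on any whole blood array, so no size is given for them. The MYD88 probe with CCCC read 15.93, 15.44 and 15.73 against 12.70, 12.96, 13.51 and 13.38, and the VNN1 probe with 5 C read 11.91, 12.04 and 11.16 against 8.20, 8.64, 9.0 and 8.69, and neither overlapped between sample types. Run length was not the sole feature of such pairs: the probes of INSIG1, which holds sterol regulators in the endoplasmic reticulum, were higher by 1.87 and lower by -4.09 (adjusted p 0.000856 and 1.06e-05) with no run above 2 in either.

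Some probes of the array are opposite strands of the same sequence. No transcript sequences were at hand, so which strand of a transcript a probe reads was not checked for any gene named here, those with discordant probes included. CYBA had a probe higher by 1.05 and another lower by -1.31 (adjusted p 0.00927 and 0.00366), and 30 bases of each show that they are largely reverse complements, with the longest run of C in capitals.
CYBA higher: atctttctagggggCCttggggtcttggtg
CYBA lower: caagaccccaaggCCCCCtagaaagatgac
The brighter, higher probe read 13.01, 13.40 and 13.60 against 13.96, 14.31, 14.74 and 14.52 and the dimmer, lower one 5.89, 6.0 and 5.20 against 4.30, 4.71, 4.34 and 4.20. In 89 pairs on the array 30 bases of 1 probe were the reverse complement of the other, 25 of these pairs had both probes tested, and the brighter probe had a median difference of 0.79 and the dimmer of 0.19. The dimmer probe had the lower difference in 17 of the 25, and 7 of the 11 pairs with both probes past the threshold had opposite directions. Pairs that share 30 bases on the same strand, 572 tested, had opposite directions in 3 of 235, and over the 572 pairs the differences of both probes correlated at 0.90, against -0.27 over the 25 pairs on opposite strands. The pairs are not independent replicates.

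The CA repeat differed between strands, and the AG repeat did not in its median. The motif CACACACACACA was held by 41 probes (0.094% of all), of which 30 were tested, 28 were lower and 0 higher, with a median of -3.08. Its reverse complement TGTGTGTGTGTG was held by 53 probes (0.122%), of which 52 were tested, 30 were higher and 0 lower, with a median of 0.91. Median levels of the tested CA probes were 10.94, 10.41 and 10.43 in whole blood and 7.98, 7.81, 7.05 and 6.92 in white blood cells. Those of the TG probes were 10.44, 10.09 and 10.32 against 10.54, 10.78, 11.16 and 11.23. The motif AGAGAGAGAGAG had a median of -1.12 and its reverse complement CTCTCTCTCTCT of -1.05, each over 4 tested probes, of which 0 and 3 were lower. Probe pairs that share such a repeat were left out of the counts of strand pairs.

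White blood cells and whole blood also differed under the other diets. Under control 8618 of 19020 probes passed (45.3%), 4637 higher (24.4%) and 3981 lower (20.9%), and under HFCD 9230 of 19413 (47.5%), 4960 higher (25.5%) and 4270 lower (22%). Whether the difference between sample types was particular to HFCSD was tested as its difference from that under control and under HFCD. Against control 281 of 20376 probes passed (1.38%), 82 with a higher difference under HFCSD (0.402%) and 199 with a lower one (0.977%). Against HFCD 6 of 20445 passed in limma (0.0293%), 5 higher (0.0245%) and 1 lower (0.00489%), none of them with a gene symbol, and 1514 had an unadjusted p below 0.05. These counts moved widely with the processing, from 0 to 1044 against control among limma fits, with 38 without whole blood replicate 1 and 1044 without whole blood replicate 3, and are given in the section on alternatives. The motif CCCC was held by 56.3% of the 199 probes with a lower difference, by 4.88% of the 82 with a higher one and by 13.1% of all tested.

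All 10 named genes with the largest differences from control lost the threshold with the replicate number as a block and with all 45 arrays in 1 fit, so their p-values hold for the fit of week 27 alone. In 9 of the 10 the whole blood arrays under HFCSD did not overlap with the other arrays of these 2 diets, lying above them in 7 and, at levels not well above background, below them in DMP1 and GNRHR. ACSL1, which activates fatty acids, read 11.51, 11.30 and 10.73 in whole blood and 7.30, 8.64, 8.56 and 8.16 in white blood cells under HFCSD. Under control it read 8.25, 8.25, 7.85 and 8.19 in whole blood and 8.90, 8.35, 7.91 and 8.73 in white blood cells, and the difference between diets was -3.35 (adjusted p 0.014). IL4R, the receptor of interleukin 4, read 9.94, 9.46 and 8.95 against 6.06, 6.63, 6.96 and 6.88 under HFCSD. Its control arrays read 6.04, 6.60, 6.27 and 7.33 against 7.54, 6.81, 6.80 and 6.88 (-3.26, adjusted p 0.0137). For both genes the white blood cell arrays of the 2 diets overlapped while the whole blood arrays did not, and both probes held a run of 6 or more C. Under HFCD the whole blood arrays read 8.69, 10.72 and 8.78 for ACSL1 and 6.70, 9.05 and 8.08 for IL4R. The IL4R reading of 9.05 lay within the range of whole blood under HFCSD, and the ACSL1 reading of 10.72 lay next to its lowest value of 10.73.

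With the same limit, CRP differed by -3.01 (adjusted p 0.046), the retinal kinase GRK7 by -3.93 (adjusted p 0.0116) and VNN1 by -2.81 (adjusted p 0.0259), each by a probe with a run of 5 or more C. ROMO1, a mitochondrial modulator of reactive oxygen, differed by -4.12 (adjusted p 0.0116) with a run of 3. It read 15.55, 15.61 and 15.22 against 14.51, 13.15, 13.01 and 14.25 under HFCSD and 10.28, 12.47, 10.64 and 10.18 against 12.57, 12.97, 14.33 and 13.24 under control, so the order of the sample types was opposite between the diets. F10, a clotting factor, differed by -3.65 (adjusted p 0.0137) and PNPLA2 by -2.90 (adjusted p 0.0289), the latter by a probe other than its brightest. The bone matrix protein DMP1 and GNRHR passed the same test (adjusted p 0.0116 and 0.031), but neither was well above background on any whole blood array under HFCSD, so no size is given for their difference between diets. For these 10 genes the adjusted p against HFCD lay between 0.112 and 0.675. GATA2 and GRN, named above, also passed against control, with -2.32 and -1.86 (adjusted p 0.0268 and 0.0288), and lost the threshold with the block and with all 45 arrays.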

How the data were processed

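The deposited intensity values are Cy3 signals that the authors extracted from single-colour scans with Agilent Feature Extraction, version 9.5.3.1 in the submitters' notes and 10.5.1.1 in the file headers. The background-corrected signal of the array files was taken to log2 and quantile normalized over all 45 arrays. Of 45220 spots per array 1417 were controls, 2 to 13 outlier spots were left out on each of the 7 arrays, and spots of a probe were averaged, which gave 43603 probes. A probe was tested if well above background on all usable arrays of at least 1 of the groups and usable on 2 or more arrays in each. The 22 arrays of week 27, in 6 groups, entered 1 fit in limma 3.58.1 (R 4.3.3), with Benjamini-Hochberg adjustment per comparison at 0.05 and 3 comparisons. The fit was tested on simulated data. Tables and plots were made with Python 3.11.15, numpy 2.4.6, pandas 2.3.3 and matplotlib 3.10.9.

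Gene symbols were found for 3754 probes, 2002 of them by accession in the RefSeq table of assembly Sscrofa11.1, 942 by the array's own gene name, 707 by description and 103 by description read by hand, giving 2572 symbols, while 39849 probes have none. A gene is represented by its brightest probe over the 22 arrays.

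Members and lists were chosen with earlier results of these data known. The 28 lists cover cell types, tissues and processes. In each list the rule allows the gene of highest mean level, the 4 largest differences, genes past the threshold against the direction of the median, and all genes where 8 or fewer were tested. Beside the lists it allows the 10 largest rises and falls without overlap, the 10 largest differences between diets, and ABCA1 and SQLE. Not all genes the rule allows are named. Other probes of THBS1, MYD88, VNN1, INSIG1, CYBA, CXCL16, BLOC1S5, RPL35 and SLA-1, the dim genes that were not tested, the runs of C, the strand pairs and the repeats were chosen after their values were seen. Alternatives included the methods' t-test and log2 of the deposited series table, whose column medians lie near 0.1 and whose scale is not described.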

Additional observations from a re-analysis of the deposited data

Results flagged for a closer look

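In 6 of 137 groups of 4 white blood cell values tested, 1 array lay far from the other 3, as measured by its gap to the nearest value over the range. Chance flags about 1 in 20 groups. The gap over the range was 0.957 for CCL19, with replicate 1 higher at 8.97, and 0.854 for CYP51, with replicate 1 lower at 7.01. It was 0.891 for IL1RN, with replicate 3 higher at 13.77, and 0.889 for RGS1, with replicate 1 lower at 9.09. For RPL35 it was 0.922, with replicate 4 lower at 14.98, and for RPS23 it was 0.999, with replicate 1 higher at 17.33 where the other 3 arrays read 17.28. The RPS23 gap is small in absolute size, and its share of the range is high because those 3 values are equal after rounding.

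The difference between white blood cells and whole blood differed between HFCSD and control for 281 probes, and between HFCSD and HFCD for 6, by the test of the difference itself. These counts rest on the fit: against control they were 0 with the replicate block, 2 with all 45 arrays in 1 fit and 38 without whole blood replicate 1 under HFCSD, and no named gene passed with the block. Among named genes the difference between diets, HFCSD minus control, was -4.12 for ROMO1, -3.93 for GRK7, -3.65 for F10, -3.35 for ACSL1, -3.26 for IL4R, -3.01 for CRP, -2.90 for a further probe of PNPLA2, -2.81 for VNN1, -2.32 for GATA2 and -1.86 for GRN. The fit gave 2.94 for DMP1 and 2.38 for GNRHR, but neither probe was well above background on any whole blood array under HFCSD, so these 2 values rest on levels not well above background and are not measured sizes.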

How the results depend on the processing

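The count of 11586 probes that differed between white blood cells and whole blood under HFCSD kept within 1.5 times under all alternatives but 2. It was 7467 when probes had to be well above background on all 7 arrays, where fewer probes were tested, and 6831 without probes that hold CCC, an alternative chosen after seeing the data. Leaving out 1 array at a time gave 9196 to 11455. Of the genes in the lists 174 passed, with 131 to 181 when leaving out 1 array. Probes well above background in 1 sample type only numbered 2596, with 1044 under the weaker flag and 2749 to 3345 when leaving out 1 array.

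The counts of differences between diets depended strongly on the processing. Against control the 281 became 87 with equal 75th percentiles, 838 with normexp, 149 with probes well above background on all arrays compared, 619 with only the groups compared, 2 with all 45 arrays in 1 fit and 463 with slide as a random block. Without probes that hold CCCC it was 108 and without those that hold CCC 67. The methods' t-test gave 2394 unadjusted with a 2-fold limit and 432 after adjustment. Leaving out 1 array gave 38 to 1044. Against HFCD the 6 became 0 with equal 75th percentiles, 0 with normexp, 17 with no filter, 0 with probes well above background on all arrays compared, 3 with only the groups compared and 0 with all 45 arrays. The t-test gave 718 unadjusted and 0 after adjustment, and leaving out 1 array 0 to 33. The cause was not tested.

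With the replicate number as a block, the counts were 10149 for the main difference, 0 against control and 0 against HFCD. The 12 genes of the text that differed between HFCSD and control failed the threshold with this block and with all 45 arrays in 1 fit. Leaving out 1 array took the threshold from ACSL1, CRP, GNRHR, IL4R, PNPLA2, VNN1, GATA2 and GRN and not from ROMO1, GRK7, F10 and DMP1. Equal numbers matched in part, so the labels and values do not settle whether the block is right. Deviations from the group means correlated across probes, which are not independent replicates, at 0.29, -0.02 and 0.08 for equal numbers under HFCSD, at 0.42, 0.08, 0.38 and 0.29 under control and at 0.20, -0.41 and -0.36 under HFCD.

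Of 2985 alternative values of the named genes 2867 kept direction and side of the threshold, 73 kept direction and lost the threshold, 15 kept direction and passed it, and 30 changed direction. The lost values lay in 26 of 136 genes, 35 of them from leaving out 1 array. With 1 array left out the threshold was lost by C3, CD3D, CXCL16, CYBA, CYP51, DDX58, FCGR1A, IGHM, MIF, MSMO1, NPG4, OLR1, SCD, SLA-1, TLR3 and USP18. Under other alternatives alone it was lost by COX7C, FASLG, FCGR3A, MRC1, MYD88, ROMO1, RPL35, SLA-3, TLR6 and VNN1. After equal 75th percentiles SLA-1 was -1.26 and passed in the opposite direction, RPS23 was -0.11, CST3 -0.23, CCR3 0.24, KIT 0.24, CD74 0.31 and UROS -0.02. UROS was -0.05 with equal medians, an alternative chosen after seeing the data, and CCR3 was 0.09 with the replicate block. With the mean of a gene's probes INSIG1 was -1.11 and passed in the opposite direction. By the same mean CYBA was -0.13, IGHG 0.00, RPL35 0.01, CD74 0.43 and KIT 0.75. Leaving out 1 array gave -0.19 to 1.34 for PF4, -0.09 to 0.59 for CXCR2, -0.01 to 0.32 for SLA-DRB1, 0.00 to 0.52 for TYROBP, -0.31 to 0.09 for CCR3, -0.24 to 0.19 for CD74, -0.43 to 0.33 for KIT and -0.71 to 1.16 for UROS. Of 392 alternative medians of lists 16 moved by more than the spread between arrays, among them ribosomal proteins at -0.02 after equal 75th percentiles, and liver genes at -1.25, cytokines at 0.53 and cholesterol genes at 0.42 with normexp. Leaving out 1 array took the adipose list to -0.27, red cell genes to -0.58, antioxidant genes to 0.17 and cytokines to 0.46. The cause was not tested.

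Quantile normalization over the 7 HFCSD arrays was not run for the differences between diets, since it scales the diets apart. Signal over background limits what whole blood can show, since fewer of its spots were well above background.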
